A study of Sus scrofa with 15 samples.

Results

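Collagens are the proteins of the extracellular matrix that form triple helices from 3 chains, and each chain has a gene of its own. Fibrillar collagens (types I, II, III, V, XI, XXIV and XXVII) assemble into the fibres that give tissue its tensile strength. Basement membrane collagens (type IV) and the short-chain collagens (types VIII and X) form sheets, FACIT collagens (fibril-associated collagens with interrupted triple helices) decorate fibres, and transmembrane collagens sit in the cell surface. Fibroblasts are the classic source of fibrillar collagen, and a cleaving embryo has no connective tissue. The question here is how far each class of collagen gene fell after a fibroblast nucleus was transferred into an oocyte.

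The collagen genes were taken by symbol: every entry named COL, a number, A and a number. This found 42 genes of the 28224 known genes and 43294 features in the table. They comprise 11 fibrillar, 10 FACIT, 6 basement membrane network, 4 transmembrane, 3 short-chain network, 3 beaded filament and 2 multiplexin genes, 1 anchoring fibril gene and 2 others. The symbols *COL6A1*, *COL6A2* and *COL6A4* are not in the table used here. All 42 lie inside the locus that the table lists for them in the pig assembly Sscrofa11.1.

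RNA-seq libraries of 5 groups were analysed, with 3 libraries in each group. PFF are primary pig fetal fibroblasts, grown to contact inhibition and used as nuclear donors. SCNT4c and SCNT8c are untreated somatic cell nuclear transfer embryos at the 4-cell and 8-cell stage, made by placing such a donor cell in an enucleated oocyte. SCNT4c-KG are 4-cell embryos injected with mRNA of the H3K9 demethylase *KDM4A* and treated with GSK126, which inhibits the H3K27 methyltransferase EZH2. SCNT4c-TDG are 4-cell embryos from PFF that carried a doxycycline-inducible vector for the DNA glycosylase *TDG*, had been selected with puromycin, and were induced with doxycycline. The PFF libraries are not stated to carry that vector. No embryos given doxycycline without the *TDG* vector and no fertilized embryos were analysed here. All embryo groups share PFF nuclei and oocyte cytoplasm, each embryo library is 1 pool of 30 embryos, and RNA of PFF and of embryos was extracted by different methods. A p-value here measures the spread between pools or cultures, and the labels do not tell whether these came from separate days or animals.

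Values are counts of reads per feature divided by 1 factor for each library (normalised counts), and the whole reads behind them could be recovered. Recovered reads ranged from 12354649 to 22868038 per library, and were fewest in SCNT4c-KG (12354649 to 15390472). The normalised count of *TDG* was 55575 in SCNT4c-TDG against 1713 in SCNT4c and 4366 in SCNT4c-KG. That of *KDM4A* was 1448 in SCNT4c-KG against 194 in SCNT4c, 775 in SCNT4c-TDG and 5005 in PFF. Among 16 fibroblast markers that are no collagens, of which *LOX* and *DCN* are also in the lists of collagen processing and fibril proteins below, the summed level lay between 929303 and 993118 in PFF and between 1774 and 6519 in embryos, with *PDGFRA* listed at 0 in all PFF libraries. Oocyte and maternal markers (13 genes) summed to between 28039 and 208583 in embryos and between 16.6 and 25 in PFF, where 11 of them were at 0. In embryos *BMP15*, *GDF9* and *MOS* were also at 0 in all libraries, as were *TLE6* in SCNT4c, SCNT8c and SCNT4c-TDG and *ZAR1* in SCNT4c-KG. Cumulus cell markers (11 genes) summed to between 208 and 626 in embryos and between 12721 and 15113 in PFF, and *PTX3*, *AMH* and *FOXL2* were at 0 in all embryo libraries. *CYP19A1* and *FSHR* were at 0 in all PFF libraries, whereas *CYP19A1* had reads in each embryo group and *FSHR* in each but SCNT4c-KG. Of 7 cumulus markers tested in SCNT4c against PFF, 4 fell and 2 rose by the rule given below, beside 38.5% and 39.7% of all features. In bulk samples, less RNA per cell and fewer cells of a type cannot be told apart.

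The starts of 4 genes are printed for reference, since the results turn on them. *COL1A1* and *COL1A2* encode the chains of type I collagen and were the highest collagens of PFF. *COL4A1* encodes a chain of the basement membrane and was at 0 in every SCNT4c-KG library, and *COL19A1* encodes a FACIT collagen that was at 0 in every PFF library. Each sequence holds the 250 bases before and the first 50 bases of the gene as annotated by RefSeq, read from Sscrofa11.1 in the direction of transcription. Capitals mark 3 motifs on either strand. The first is the CCAAT box, spelled CCAAT. The second is the TATA box, searched as TATAAA. The third is the GC box, searched as GGGCGG.
*COL1A1*, chr12:26397131-26397430, minus strand: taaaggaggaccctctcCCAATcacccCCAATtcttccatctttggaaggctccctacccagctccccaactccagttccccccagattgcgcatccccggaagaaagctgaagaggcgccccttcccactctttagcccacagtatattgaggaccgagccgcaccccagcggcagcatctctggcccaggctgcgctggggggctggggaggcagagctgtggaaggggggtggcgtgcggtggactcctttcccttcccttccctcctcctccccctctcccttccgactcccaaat
*COL1A2*, chr9:74174234-74174533, plus strand: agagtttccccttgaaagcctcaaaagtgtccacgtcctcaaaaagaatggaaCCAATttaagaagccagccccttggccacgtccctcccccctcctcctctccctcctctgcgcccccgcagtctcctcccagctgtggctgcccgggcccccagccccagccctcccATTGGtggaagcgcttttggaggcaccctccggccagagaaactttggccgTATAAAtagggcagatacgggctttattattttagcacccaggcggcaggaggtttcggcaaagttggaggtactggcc
*COL4A1*, chr11:76997360-76997659, minus strand: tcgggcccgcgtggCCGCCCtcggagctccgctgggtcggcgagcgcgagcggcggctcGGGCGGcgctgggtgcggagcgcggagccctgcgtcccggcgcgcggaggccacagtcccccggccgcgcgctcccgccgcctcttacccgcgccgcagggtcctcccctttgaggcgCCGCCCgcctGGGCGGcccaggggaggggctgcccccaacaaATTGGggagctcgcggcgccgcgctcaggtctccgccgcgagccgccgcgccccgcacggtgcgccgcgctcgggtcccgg
*COL19A1*, chr1:50044144-50044443, plus strand: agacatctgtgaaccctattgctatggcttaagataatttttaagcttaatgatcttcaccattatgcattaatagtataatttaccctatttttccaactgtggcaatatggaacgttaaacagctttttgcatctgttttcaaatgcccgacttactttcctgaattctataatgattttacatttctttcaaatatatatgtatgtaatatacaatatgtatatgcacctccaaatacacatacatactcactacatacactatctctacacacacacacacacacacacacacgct
In these windows *COL1A1* holds CCAAT boxes at 233 and 223 bases before its start, and *COL1A2* holds CCAAT boxes at 197 and 80 bases and a TATA box at 29 bases before its start. *COL4A1* holds 4 GC boxes, 1 CCAAT box and 54 CpG pairs, whereas *COL19A1* holds none of the 3 motifs and 3 CpG pairs. The CCAAT box was found in 18 of the 42 collagen windows (42.9%) and in 35.4% of the windows of 19556 protein-coding genes. The TATA box was found in 8 of 42 against 10.9% of all windows, and the GC box in 21 of 42 against 50.6%. These matches describe letters and not binding sites.

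Collagen transcripts took a mean of 13.4% of the summed normalised counts in PFF (SD 0.538, n = 3, range 12.9 to 13.9). In SCNT4c this share was 0.0303% (SD 0.00382), which is 442-fold lower. It was 0.0136% (SD 0.000779) in SCNT8c, 0.0103% (SD 0.00108) in SCNT4c-KG and 0.0141% (SD 0.00120) in SCNT4c-TDG, or 985-fold, 1301-fold and 947-fold lower than in PFF. No embryo library overlapped the PFF range. SCNT4c held the highest share of the embryo groups, and its 3 libraries (0.0268% to 0.0344%) did not overlap those of SCNT8c, SCNT4c-KG or SCNT4c-TDG, whose means were 2.23-fold, 2.95-fold and 2.14-fold lower. With 3 against 3 libraries, the two-sided exact permutation test gave p = 0.1 for each of these 7 comparisons, the smallest value it can give. The shares rest on 2941119 to 3097612 collagen reads per PFF library, and on 1326 to 7754 per embryo library.

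Between SCNT4c and PFF, 29 of the 42 genes had a mean of at least 10 and were tested with limma. Of these, 20 fell and 8 rose by the rule used throughout, which asks for more than a 2-fold difference and for an adjusted p below 0.05. Across all features tested, 38.5% fell and 39.7% rose. In SCNT8c, 19 of 26 tested collagen genes fell and 4 rose against PFF (all features: 36.8% and 33.7%). In SCNT4c-KG, 21 of 29 fell and 6 rose (37.1% and 39.8%), and in SCNT4c-TDG 21 of 28 fell and 6 rose (40.3% and 39.3%). The median log2 fold change of the tested collagen genes was -6.99 in SCNT4c, -8.65 in SCNT8c, -8.23 in SCNT4c-KG and -7.37 in SCNT4c-TDG, against 0.07, -0.15, 0.12 and -0.12 over all features. With genes at 0 in 1 group set to the bound that 3 reads per library allow, these medians were -6.99, -8.64, -8.12 and -7.37. A gene that is high only in 1 group passed the minimum through that group, so these counts describe the tested genes and are no separate support. Scaling moved these values: the median over all features in SCNT4c was 0.96 with edgeR and 1.01 with DESeq2, where 8933 and 9138 features rose and 5864 and 5941 fell, against 7662 and 7421 with limma. Both tools called 28 of the 29 collagen genes in SCNT4c. In SCNT8c, SCNT4c-KG and SCNT4c-TDG the medians over all features were 0.69, 0.6 and 0.61 with edgeR, and 0.73, 0.71 and 0.69 with DESeq2. In SCNT8c 7330 features rose and 5178 fell with edgeR, against 6220 and 6793 with limma. In SCNT4c-TDG 8274 rose and 6048 fell with edgeR, against 7158 and 7332 with limma. The 4 embryo groups were each compared with the same 3 PFF libraries.

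Donor cells expressed 19 of the 42 genes at a mean normalised count of 50 or more. In SCNT4c, 18 of these 19 were lower than in PFF by 5-fold or more and 1, *COL4A5*, by between 2-fold and 5-fold. Among all 9653 features that reached 50 in these donor cells, 50.3% were lower by 5-fold or more in SCNT4c. The median residual level of the 19 genes, as a percentage of the PFF mean, was 0.0766% in SCNT4c, 0.0526% in SCNT8c, 0.0191% in SCNT4c-KG and 0.0456% in SCNT4c-TDG. Over all 9653 features it was 19.6%, 23.7%, 22% and 24.2%. *COL14A1* remained at 1% or more of PFF in all 4 embryo groups. *COL4A5* did so in 3 of them, and *COL9A3*, a FACIT chain of cartilage, did so in SCNT4c-TDG. The *COL9A3* level rests on 1, 6 and 3 reads in the SCNT4c-TDG libraries, which ranged from 0.624% to 3.44% of a PFF mean of 134.

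**Figure D1:**
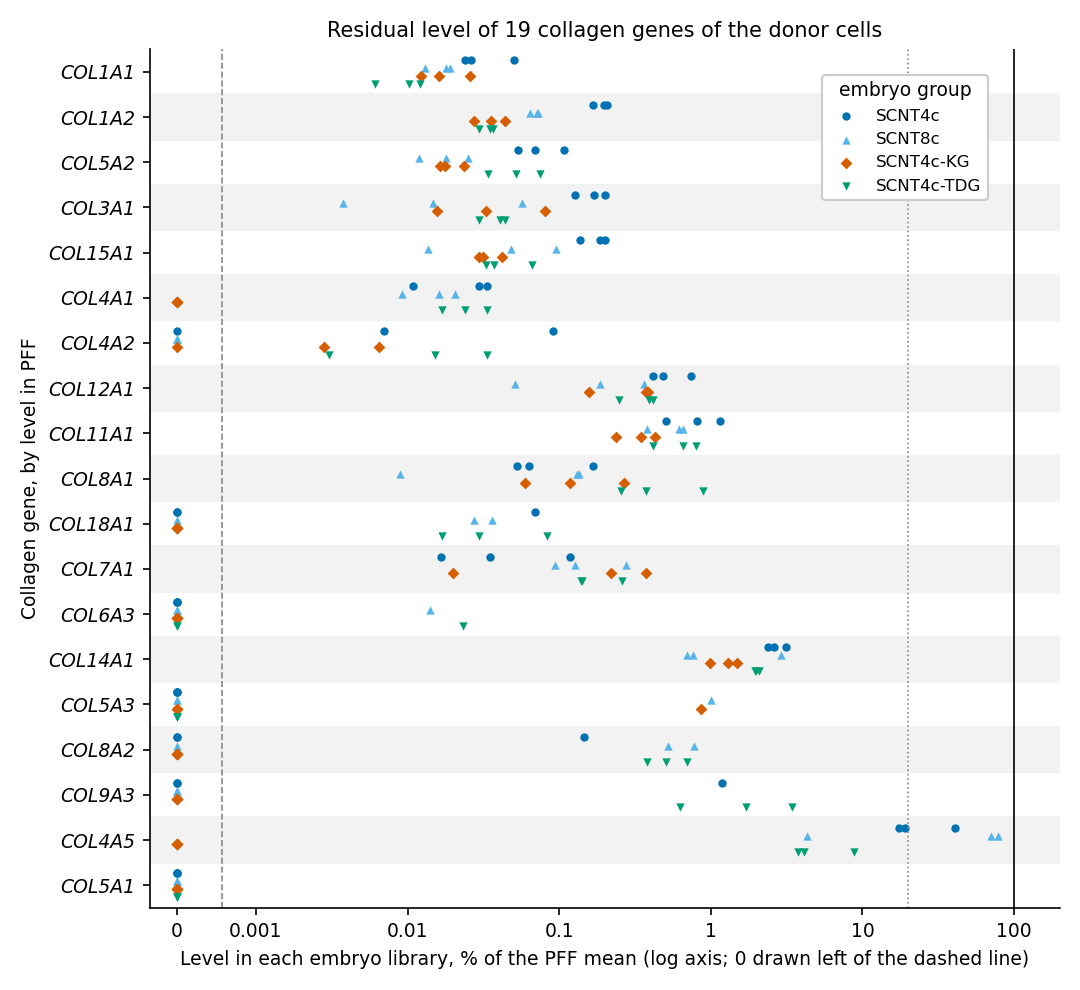
Level of the 19 collagen genes that reached a mean of 50 in the donor cells, in each of the 12 embryo libraries, as a percentage of the PFF mean on a log axis, with 0 drawn apart at the left. Points are single libraries, with a dotted line at 5-fold below PFF and a solid line at the PFF mean. Most points lie below 1%, and those of *COL4A5* reach furthest right.

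The fibrillar genes carried the type I collagen of the donor cells. *COL1A1*, at chr12:26379087-26397180, had the highest mean of all 43294 features in PFF, with normalised counts of 1625371, 1722224 and 1551062. It was at 827, 429.9 and 392 in SCNT4c, at 293, 214 and 311 in SCNT8c, at 419.8, 265 and 199 in SCNT4c-KG and at 167, 199 and 99.5 in SCNT4c-TDG. No embryo library came near the PFF range, and the highest value in embryos was that of 1 SCNT4c library. The log2 fold change against PFF was -11.62, SE 0.28, adjusted p = 7.02e-07 in SCNT4c and -13.41, SE 0.24, adjusted p = 8.78e-08 in SCNT4c-TDG.

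*COL1A2*, at chr9:74174484-74210407, encodes the partner chain and ranked second in PFF, with 1339831, 1401247 and 1243816. It was the highest collagen gene in every embryo group, at 2633, 2218 and 2755 in SCNT4c and 964, 956 and 847 in SCNT8c. In SCNT4c-KG it was at 469, 367 and 581 and in SCNT4c-TDG at 391, 490.2 and 465. SCNT4c was highest of the embryo groups, SCNT8c lay between, and the ranges of SCNT4c-KG and SCNT4c-TDG overlapped. Its residual level was 0.191% of PFF in SCNT4c, against 0.0337% for *COL1A1*.

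The 2 type I chains did not fall in proportion. The ratio of *COL1A2* to *COL1A1* within a library was 0.802 to 0.824 in PFF. It was 3.19, 5.16 and 7.03 in SCNT4c, 2.73 to 4.46 in SCNT8c, 1.12 to 2.91 in SCNT4c-KG and 2.34 to 4.68 in SCNT4c-TDG. Every embryo library was above every PFF library, and the mean log2 ratio was higher than in PFF by 2.58 in SCNT4c and by 1.02 in SCNT4c-KG (two-sided exact permutation test, p = 0.1 each, the smallest possible). This comparison was chosen after the values were seen.

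**Figure D2:**
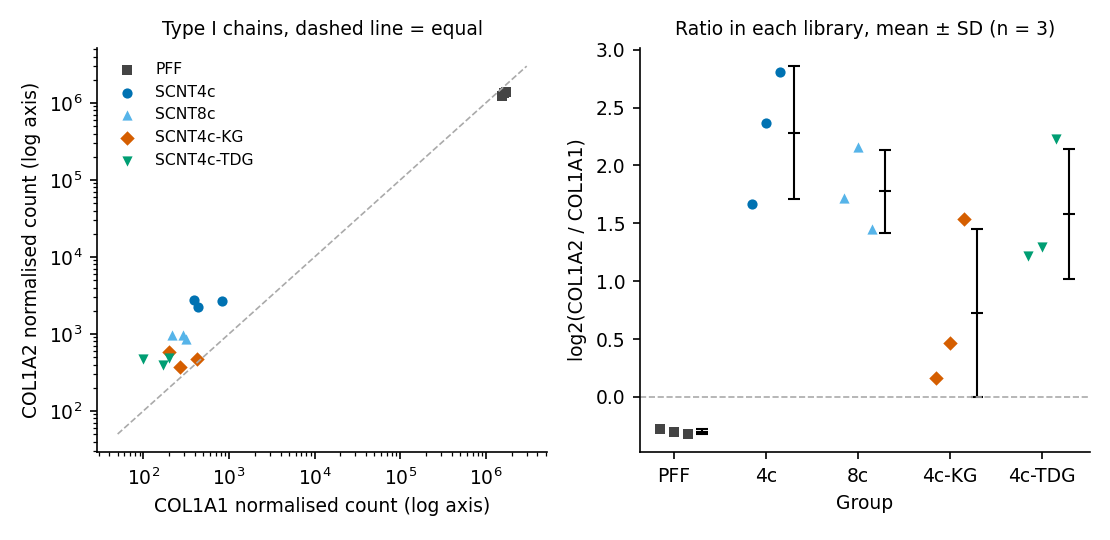
Left, normalised counts of *COL1A1* (x) and *COL1A2* (y) in each of the 15 libraries, both on log axes, with a dashed line where they are equal. Right, the log2 ratio of *COL1A2* to *COL1A1* in each library with the mean ± SD of each group (n = 3) and a dashed line at 0; PFF libraries lie just below 0 and all embryo libraries above it.

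The other major fibrillar genes also fell in every embryo group. *COL3A1*, which encodes the type III chain found beside type I, was at 176993, 182175 and 172997 in PFF. It was at 303, 226 and 356 in SCNT4c, 26.1, 6.65 and 101 in SCNT8c, 58.8, 27.9 and 142 in SCNT4c-KG and 71.9, 52.2 and 78.0 in SCNT4c-TDG, so SCNT4c lay above the other embryo groups. *COL5A2*, a type V chain that starts fibrils and lies 16177 bases from *COL3A1* with its end facing it, was at 213231, 222374 and 197008 in PFF. It was at 226, 113 and 146 in SCNT4c, 53.2, 24.9 and 38.0 in SCNT8c, 34.3, 49.5 and 37.0 in SCNT4c-KG and 157, 109.7 and 71.9 in SCNT4c-TDG. These neighbours kept 0.166% and 0.0766% of their PFF level in SCNT4c.

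*COL11A1*, a type XI chain, was at 36146, 38944 and 28659 in PFF, 395, 281 and 175 in SCNT4c, 132, 212 and 225 in SCNT8c, 81.7, 148 and 119.7 in SCNT4c-KG and 227, 143 and 276 in SCNT4c-TDG. Its residual levels of 0.821%, 0.548%, 0.337% and 0.623% of PFF were above those of *COL1A1*, *COL1A2*, *COL3A1* and *COL5A2* in each embryo group. *COL5A3* was lower in PFF (1482 ± 463, mean ± SD, n = 3) and was at 0 in all libraries of SCNT4c and SCNT4c-TDG, which is at least 595-fold and at least 626-fold lower, with 3 reads per library as the floor. *COL2A1*, the cartilage chain, went the other way: from a mean of 6.11 in donor cells it rose to 16.3 in SCNT4c and to 57.0 in SCNT4c-TDG (log2 fold changes 1.24 and 2.92). The SCNT4c call was lost without PFF replicate 1 or 2 (limma adjusted p = 0.116 and 0.111), and with quantile normalization its direction turned (log2 fold change -0.83, adjusted p = 0.186). The SCNT4c-KG embryos, at a mean of 23.7, did not pass the test (1.38, SE 0.82, adjusted p = 0.161).

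*COL5A1* needs care. Its own entry had a mean of 52.1 in PFF and no read in any embryo library. An assembled transcript listed at the same locus, where no other known gene is listed, had a mean of 59734 in PFF and at most 7.83 in an embryo group. The sum of both was at 0.00690% of PFF in SCNT4c. The position of the assembled transcript within the locus is not given, so the entry of *COL5A1* alone may hold a small part of its reads.

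Among the basement membrane genes, *COL4A1* and *COL4A2* fell in every embryo group. *COL4A1* and *COL4A2* encode the common type IV chains, face each other at their starts and overlap by 525 bases. *COL4A1* was at 92636, 111414 and 68929.7 in PFF, 26.8, 30.6 and 9.96 in SCNT4c, 18.7, 8.31 and 14.8 in SCNT8c and 21.7, 15.3 and 30.6 in SCNT4c-TDG. It was at 0 in all 3 SCNT4c-KG libraries, which is at least 21027-fold below PFF. *COL4A2* was at 51115, 58583 and 41157 in PFF, 45.7, 3.50 and 0 in SCNT4c, 3.27, 0 and 1.42 in SCNT4c-KG and 16.7, 7.67 and 1.53 in SCNT4c-TDG, and at 0 in all SCNT8c libraries. Whether strand was used in counting is not given in the sources used here, so the assignment of reads in the overlap is uncertain.

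*COL4A5*, an X-linked type IV chain, had the highest residual level in SCNT4c, SCNT8c and SCNT4c-TDG, at 25.8%, 51.3% and 5.55% of PFF. It was at 116, 144 and 106 in PFF, 21.3, 49.8 and 23.2 in SCNT4c, 96.2, 86.5 and 5.28 in SCNT8c, 5.02, 4.60 and 10.7 in SCNT4c-TDG and 0 in all SCNT4c-KG libraries. The SCNT8c libraries spread from 5.28 to 96.2, all below PFF, and their log2 fold change was -1.70, SE 1.08, adjusted p = 0.195. *COL4A4* and *COL4A6* went the other way. *COL4A4*, whose start overlaps that of *COL4A3* by 663 bases, was at 0, 6.37 and 2.38 in PFF, 99.4, 183 and 135 in SCNT4c, 49.5, 19.1 and 275 in SCNT8c, 32.7, 31.7 and 48.4 in SCNT4c-KG and 9.20, 9.97 and 9.95 in SCNT4c-TDG. It rose in SCNT4c, SCNT8c and SCNT4c-KG and did not reach the minimum of the test in SCNT4c-TDG. The call in SCNT8c was lost without PFF replicate 1 (limma adjusted p = 0.0504). *COL4A6* had a mean of 2.05 in PFF, 28.5 in SCNT4c, 8.92 in SCNT8c, 70.4 in SCNT4c-KG and 80.5 in SCNT4c-TDG, and rose in the 3 groups of 4-cell embryos. The call in SCNT4c was lost with quantile normalization (log2 fold change 1.02, limma adjusted p = 0.321). An assembled transcript listed at its locus was far higher, and the sum of both was 14022 in SCNT4c, 9572 in SCNT8c, 2803 in SCNT4c-KG and 3431 in SCNT4c-TDG, against 2.05 in PFF. With this sum SCNT4c is the highest embryo group, whereas by the gene's own entry it is SCNT4c-TDG.

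Among the FACIT genes, 3 reached a mean of 50 in PFF and fell after transfer, and 3 others appeared in embryos. *COL12A1* coats fibrils and was at 34485, 35168 and 37119 in PFF, 148, 173 and 264 in SCNT4c, 66.3, 18.3 and 129.95 in SCNT8c, 132, 55.8 and 137 in SCNT4c-KG and 147, 139.6 and 88.8 in SCNT4c-TDG. *COL14A1*, a related coat collagen, was at 5525, 5114 and 7788 in PFF, 161, 191 and 146 in SCNT4c, 42.9, 46.6 and 179.6 in SCNT8c, 60.4, 79.9 and 91.2 in SCNT4c-KG and 127, 120.4 and 122 in SCNT4c-TDG. Its residual level in SCNT4c was 2.70% of PFF, beside 0.548% for *COL12A1* and 0.0337% for *COL1A1*. The log2 fold changes against PFF in SCNT4c were -7.55, SE 0.22, adjusted p = 1.13e-06 for *COL12A1* and -5.18, SE 0.21, adjusted p = 3.23e-06 for *COL14A1*.

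*COL19A1*, at chr1:50044394-50402256, was an embryo collagen. It had no read in any PFF library and was at 568, 359 and 491 in SCNT4c, 166, 77.3 and 278 in SCNT8c, 364, 199 and 177 in SCNT4c-KG and 379.7, 175 and 243 in SCNT4c-TDG. It was at least 128-fold higher in SCNT4c than in PFF, and at least 47.1-fold, 66.9-fold and 72.1-fold higher in the other 3 groups in the same order. *COL9A1*, a FACIT chain of cartilage, lies 1098 bases away with its end facing the end of *COL19A1*. It also had no read in PFF and was at 22.1, 25.3 and 24.1 in SCNT4c, 49.5, 29.9 and 43.3 in SCNT8c, 134, 148 and 115 in SCNT4c-KG and 43.5, 19.9 and 102 in SCNT4c-TDG, so that SCNT4c-KG was highest. *COL21A1* was the third FACIT gene of this kind, with a mean of 0 in PFF, 127 ± 21.2 in SCNT4c and 37.1 ± 43.5 in SCNT4c-KG. In SCNT8c it reached 46.9 ± 73.2 through 1 library and did not pass the test (adjusted p = 0.0578). The call in SCNT4c-KG was lost with quantile normalization (adjusted p = 0.0607).

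**Figure D3:**
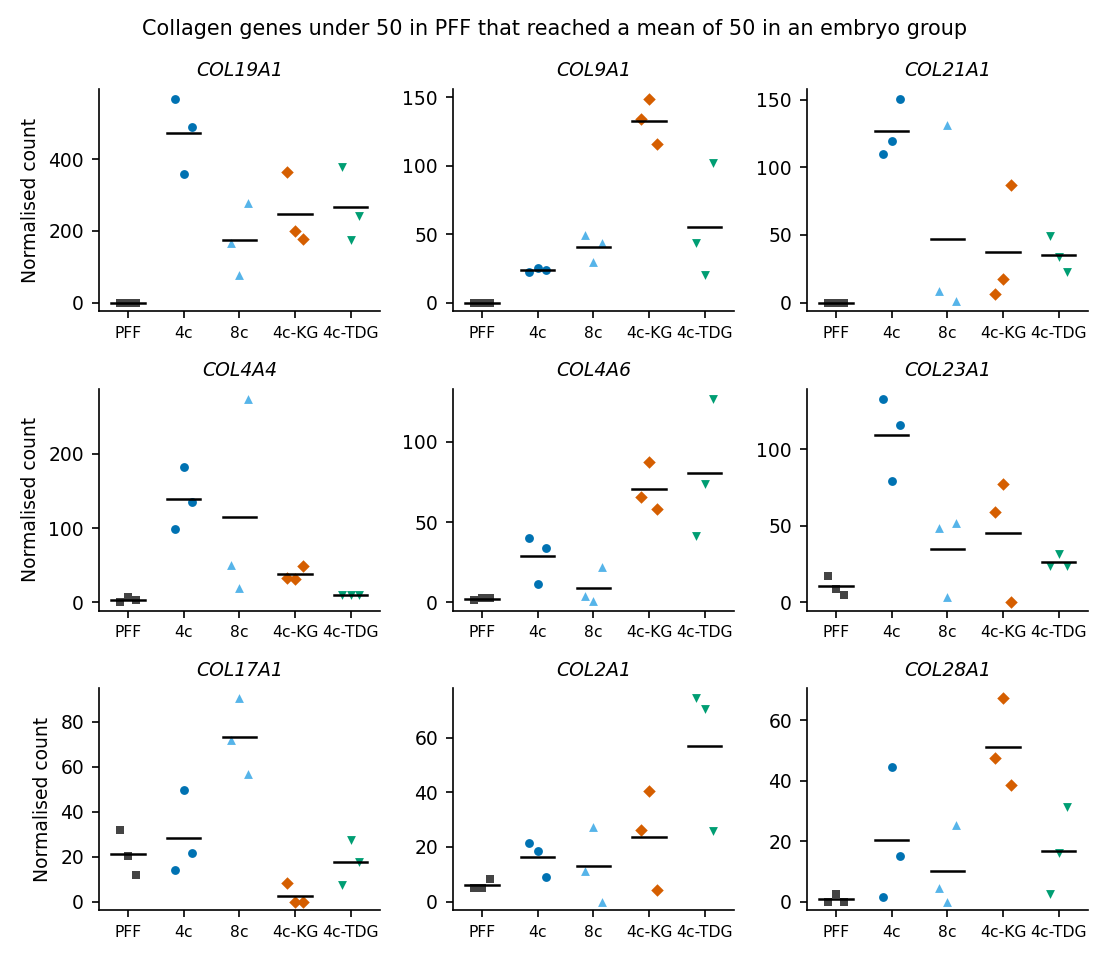
Normalised counts of the 9 collagen genes with a mean under 50 in PFF and of at least 50 in an embryo group; each panel has its own linear axis. Points are single libraries and horizontal lines are group means of 3 libraries; *COL19A1*, *COL9A1* and *COL21A1* are at 0 in all PFF libraries.

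The 2 multiplexins, collagens of the basement membrane zone with interrupted helices, both fell. *COL15A1* was at 96926, 101506 and 92164 in PFF, 194, 133 and 179 in SCNT4c, 46.7, 13.3 and 93.0 in SCNT8c, 40.8, 30.5 and 28.5 in SCNT4c-KG and 36.0, 64.4 and 32.1 in SCNT4c-TDG. *COL18A1*, the source of endostatin, had a mean of 18139 ± 2430.4 in PFF and 4.21 ± 7.29 in SCNT4c, and no read in SCNT4c-KG. Among the remaining donor genes, *COL8A1*, a short-chain collagen, kept 0.0947% of PFF in SCNT4c and 0.506% in SCNT4c-TDG, and *COL8A2* kept 0.527% in SCNT4c-TDG. *COL7A1*, which anchors skin epidermis, had a mean of 14178 ± 652 in PFF and 7.98 ± 7.58 in SCNT4c. *COL6A3*, a chain of the beaded filaments around cells, had a mean of 6632 ± 1465 in PFF and no read in SCNT4c or SCNT4c-KG, which is at least 2660-fold and at least 1532-fold lower.

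Of the transmembrane collagens, none reached a mean of 50 in PFF. *COL17A1*, the hemidesmosome collagen of epithelia, was at 31.8, 20.4 and 11.9 in PFF, 14.2, 49.8 and 21.6 in SCNT4c, 71.9, 90.6 and 57.1 in SCNT8c, 8.17, 0 and 0 in SCNT4c-KG and 7.53, 27.6 and 17.6 in SCNT4c-TDG. It was higher in SCNT8c than in PFF (log2 fold change 1.81, SE 0.48, adjusted p = 0.0141) and lower in SCNT4c-KG (-3.32, SE 0.98, adjusted p = 0.0199). In SCNT4c its log2 fold change was 0.32, SE 0.58, adjusted p = 0.627. The call in SCNT4c-KG was lost with edgeR and DESeq2 on the recovered reads (adjusted p = 0.0929 and 0.0695) and without PFF replicate 2 or SCNT4c-KG replicate 2 or 3 (limma, 0.0606 to 0.0675). That in SCNT8c was lost without PFF replicate 2 or 3 (0.0526 and 0.0541). *COL23A1* rose in SCNT4c, from a mean of 10.3 to 109.7 (3.42, SE 0.49, adjusted p = 0.000765), and in SCNT4c-TDG, to 26.2 (1.41, SE 0.47, adjusted p = 0.0248). The call in SCNT4c-TDG was lost in 7 of 15 alternatives fitted, among them those without PFF replicate 2 or 3 or any 1 SCNT4c-TDG library (limma adjusted p from 0.0521 to 0.0763). *COL23A1* did not pass the test in SCNT8c, at a mean of 34.5 (1.15, SE 1.09, adjusted p = 0.367), or in SCNT4c-KG, at 45.4 with 1 library at 0 (0.73, SE 1.74, adjusted p = 0.712), and both overlapped PFF.

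*COL28A1*, which is no transmembrane collagen, was at 0, 2.55 and 0 in donor cells. Its SCNT4c libraries were at 1.58, 44.6 and 14.9, and those of SCNT4c-KG at 47.4, 67.3 and 38.5. It rose in SCNT4c-KG, where every library was above PFF (5.06, SE 0.60, adjusted p = 0.000393). SCNT4c also passed the test (3.01, SE 1.14, adjusted p = 0.047), but 1 of its libraries lay within the range of PFF. Without SCNT4c replicate b its mean went from 20.4 to 8.26, and without replicate b or c the gene was below the minimum of the test. The SCNT4c call was also lost without PFF replicate 1 or 3 (limma adjusted p = 0.129 and 0.132) and with quantile normalization (0.295).

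The other 14 collagen genes had a mean below 50 in every group, the highest being 46.6 for *COL24A1* in PFF. *COL26A1* had no read in any of the 15 libraries. Of the 42, 6 genes were at 0 in all PFF libraries: *COL6A5*, *COL9A1*, *COL19A1*, *COL21A1*, *COL25A1* and *COL26A1*. Reads of a gene in every library of the group were found for 30 of the 42 genes in PFF, 23 in SCNT4c, 19 in SCNT8c, 19 in SCNT4c-KG and 29 in SCNT4c-TDG. A gene at 0 is not shown to be silent at this depth, since the floor of 3 reads per library is a normalised count of 2.49 in SCNT4c and 4.33 in SCNT4c-KG. Intervals and floors cover counting error only, because reads amplified by PCR are not independent molecules.

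The make-up of the collagen transcripts differed between donor cells and embryos. Fibrillar genes held 90.8% of the summed collagen counts in PFF (SD 0.335, n = 3), 70.1% in SCNT4c (SD 1.78), 63.7% in SCNT8c (SD 7.52), 52.1% in SCNT4c-KG (SD 2.47) and 51.3% in SCNT4c-TDG (SD 3.23). FACIT genes held 1.13% in PFF and 18.1%, 17.3%, 30.3% and 28.8% in the embryo groups in the same order. In embryos, 58.2% to 69.1% of the FACIT sum came from *COL9A1*, *COL19A1* and *COL21A1*, which had no read in PFF. *COL1A1* and *COL1A2* together held 79.4% in donor cells, 56.3% in SCNT4c, 51.0% in SCNT8c, 38.6% in SCNT4c-KG and 28.8% in SCNT4c-TDG. The ranges of PFF and of each embryo group did not overlap for any of these 3 shares. Over the genes that reached 50 in PFF, the residual level of a class in SCNT4c was 0.864% for 3 FACIT genes, 0.113% for 7 fibrillar genes, 0.0497% for 3 basement membrane genes and 0.150% for 2 multiplexins. In SCNT4c-KG these levels were 0.443% for FACIT, 0.0297% for fibrillar genes and 0.0289% for multiplexins. The 3 basement membrane genes had 3 reads in all in SCNT4c-KG, all of *COL4A2*, too few to give a level. With all members of the class counted, the SCNT4c sums stood at 2.36% of PFF for FACIT and 0.175% for basement membrane genes, and 63.4% and 71.6% of these embryo sums came from genes under 50 in PFF. Per kilobase of exon, *COL1A2* was at 499 in SCNT4c, *COL1A1* at 89.5, *COL3A1* at 61.9, *COL11A1* at 40.6 and *COL19A1* at 40.5 normalised counts per kb.

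**Figure D4:**
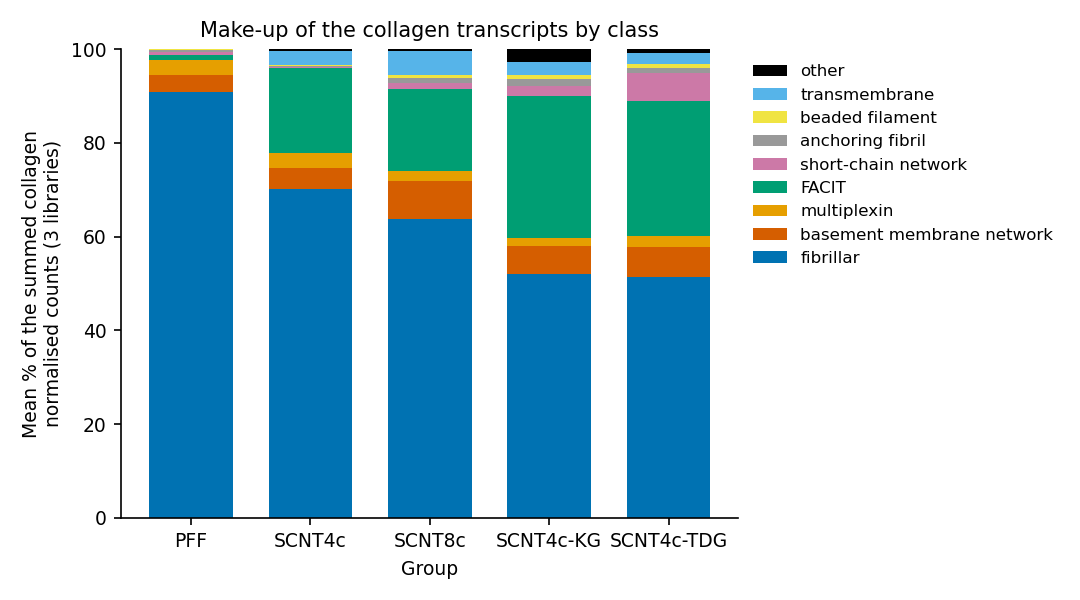
Mean share of each collagen class in the summed normalised counts of the 42 collagen genes, in percent, for each of the 5 groups (3 libraries each). Fibrillar genes make up 90.8% in PFF and 51.3% to 70.1% in the embryo groups, and FACIT genes 1.13% and 17.3% to 30.3%.

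Between embryo groups, the 12 libraries were fitted together and 22 collagen genes reached the minimum. In SCNT8c against SCNT4c, *COL1A2*, *COL3A1* and *COL5A2* fell and no collagen gene rose, beside 3.16% and 2.62% of all features. Their log2 fold changes were -1.45, SE 0.29, adjusted p = 0.0205 for *COL1A2*, -3.39, SE 0.81, adjusted p = 0.0313 for *COL3A1* and -2.04, SE 0.55, adjusted p = 0.0439 for *COL5A2*. The median over the 22 genes was -1.21, against -0.31 over all features. The balance over all features turned with the tool: 497 rose and 599 fell with limma, 669 and 173 with edgeR, and 1962 and 771 with DESeq2, with medians of -0.01 and 0.07 in edgeR and DESeq2. This count rested on the fit: it was 1 with edgeR on the recovered reads (5 at an unadjusted p under 0.05), 0 in a limma fit of the 2 groups alone (8 at an unadjusted p under 0.05) and 3 with DESeq2. It was 9 without SCNT8c replicate 3 and 0 without each of the other 5 libraries in turn.

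In SCNT4c-KG against SCNT4c, 8 of the 22 genes fell and 1 rose, beside 19.6% and 17.6% of all features. *COL4A5* and *COL4A1*, at 0 in all SCNT4c-KG libraries, were at least 7.27-fold and at least 5.19-fold lower (limma adjusted p = 0.00223 and 0.00103). *COL17A1* fell from a mean of 28.5 to 2.72 (-3.63, SE 0.97, adjusted p = 0.00908), *COL1A2* from 2535 to 472 (-2.44, SE 0.29, adjusted p = 1.73e-05) and *COL15A1* from 169 to 33.3 (-2.31, SE 0.68, adjusted p = 0.0151). *COL3A1*, *COL5A2* and *COL11A1* were also lower, by log2 fold changes of -2.21, -1.93 and -1.24. The call of *COL5A2* was lost without SCNT4c replicate a (adjusted p = 0.0535). That of *COL3A1* was lost without any of SCNT4c replicates a, b and c and SCNT4c-KG replicates 1 and 2 (limma adjusted p from 0.0732 to 0.165), and that of *COL11A1* without SCNT4c replicates a and b and each SCNT4c-KG replicate (0.0524 to 0.16). With edgeR, the adjusted p was 0.0833 for *COL3A1* and 0.0773 for *COL11A1*, and each of these calls was lost in 8 of 16 alternatives. *COL9A1* rose from 23.8 to 133 (2.42, SE 0.64, adjusted p = 0.00804). The count of 9 changed genes was 7 with edgeR, 9 with DESeq2, 11 in a limma fit of the 2 groups alone and from 6 to 9 with 1 library left out. Over all 18942 features tested, 7054 changed with limma, 5831 with edgeR and 7237 with DESeq2. The balance over all features turned with the tool: 3335 rose and 3719 fell with limma, 3114 and 2717 with edgeR, and 3866 and 3371 with DESeq2. *COL1A1* did not pass the test (-0.88, SE 0.44, adjusted p = 0.125), and its ranges overlapped. SCNT4c-KG had the fewest reads, and the part of depth in the genes at 0 was not tested.

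In SCNT4c-TDG against SCNT4c, 4 of the 22 genes fell and none rose, beside 17.6% and 15.7% of all features. *COL4A4* fell from a mean of 139 to 9.71 (-3.67, SE 0.81, adjusted p = 0.00278), *COL1A2* from 2535 to 449 (-2.50, SE 0.29, adjusted p = 1.65e-05), *COL15A1* from 169 to 44.2 (-1.96, SE 0.68, adjusted p = 0.0367) and *COL1A1* from 549 to 155 (-1.79, SE 0.44, adjusted p = 0.00573). The SCNT4c and SCNT4c-TDG libraries did not overlap for 15 of the 22 tested genes, these 4 among them. Absence of overlap therefore does not set these 4 genes apart, and its share over all features was not counted. The call of *COL15A1* was lost without any 1 of the 6 libraries (adjusted p from 0.0511 to 0.114). *COL3A1* missed the threshold (-2.11, SE 0.81, adjusted p = 0.0564). The count was 7 with DESeq2 and 10 in a limma fit of the 2 groups alone. Over all 18942 features tested, 6300 changed with limma and 6982 with DESeq2. The balance over all features turned with the tool: 2969 rose and 3331 fell with limma, 3067 and 2461 with edgeR, and 3787 and 3195 with DESeq2. The donor cells of SCNT4c-TDG had been transfected, selected and induced, and these steps cannot be told apart from *TDG* itself.

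**Figure D5:**
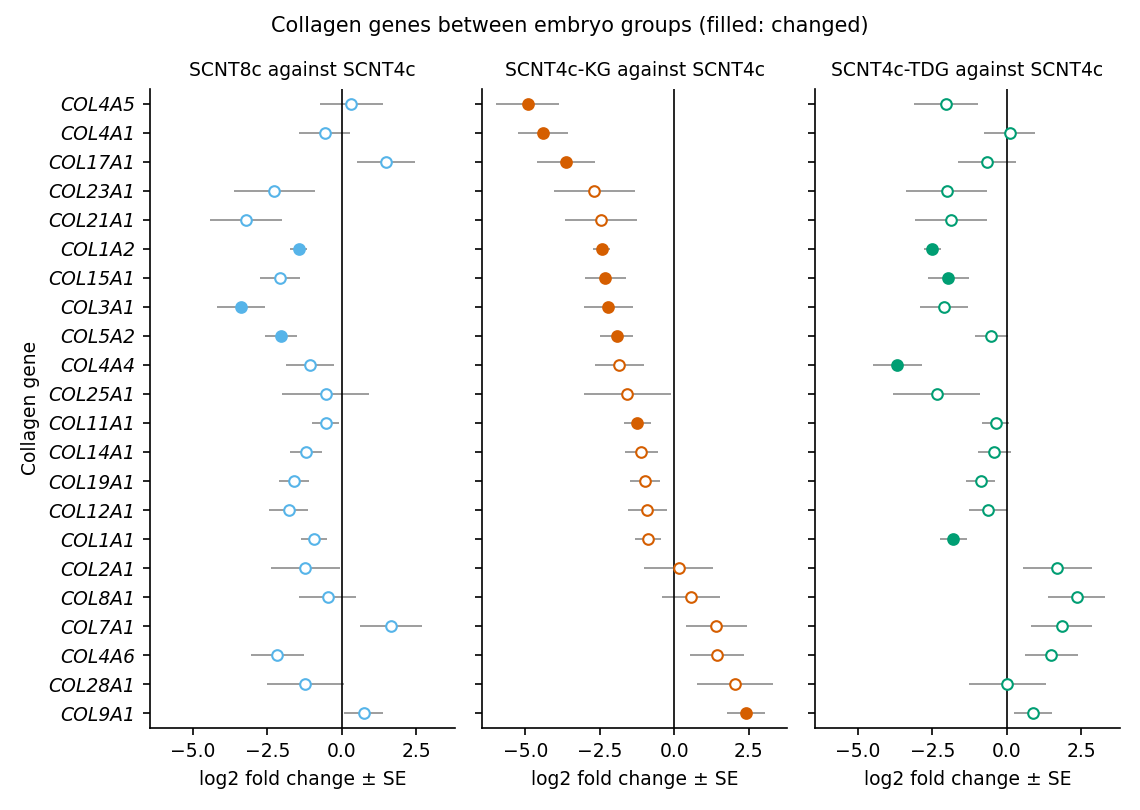
Log2 fold change ± SE (x) of the 22 collagen genes tested between embryo groups (y, ordered by SCNT4c-KG against SCNT4c), one panel per comparison with SCNT4c. Filled points changed (limma, adjusted p under 0.05 and above 2-fold): 3, 9 and 4 genes from left to right. *COL1A2* is filled in all 3 panels.

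*COL1A2* was lower in all 3 of these groups, which share the SCNT4c libraries. Beside these falls, the summed fibroblast markers lay at 3598 to 4062 in SCNT4c, 1774 to 2499 in SCNT8c, 3095 to 6519 in SCNT4c-KG and 1910 to 2224 in SCNT4c-TDG. They were lower than in SCNT4c in SCNT8c and SCNT4c-TDG, whereas the ranges of SCNT4c and SCNT4c-KG overlapped. Of 12 fibroblast markers tested against SCNT4c, 3 rose and 5 fell in SCNT4c-KG, beside 17.6% and 19.6% of all features. In SCNT4c-TDG 1 rose and 6 fell (all features: 15.7% and 17.6%), and in SCNT8c none rose and 2 fell (2.62% and 3.16%). The summed oocyte and maternal markers lay at 186621 to 208583 in SCNT4c and were lower without overlap in all 3 of these groups, at 51355 to 133569 in SCNT8c, 57607 to 96152 in SCNT4c-KG and 28039 to 30715 in SCNT4c-TDG. The part of carried-over donor RNA and of maternal RNA in these values was not tested.

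Genes that make, anchor or break down collagen were compared in 5 lists. Of 21 genes for chain modification and folding, 18 were tested in SCNT4c against PFF, of which 17 fell and 1 rose (median log2 fold change -6.07, against 0.07 over all features). For this and the next 4 lists, the shares over all features in the same comparison are 38.5% lower and 39.7% higher. *SERPINH1*, the collagen chaperone HSP47, went from 25922 ± 444 to 29.8 ± 17.4 (mean ± SD), whereas *PLOD2*, a lysyl hydroxylase, went from 13497 ± 443 to 1845 ± 128. Of 15 genes for propeptide cleavage and crosslinking, 10 of 13 tested fell and 2 rose (median -6.52), and *LOXL2* went from 46188 to 341. Of 14 fibril-associated proteins, 11 of 12 tested fell and none rose (median -9.06), among them fibronectin (*FN1*), from 436670 to 508, and *SPARC*, from 312827 to 2412. Of 10 collagen receptors, 6 of 7 tested fell and 1 rose (median -5.99), and *ITGB1* went from 92455 to 382. Of 15 genes of collagen breakdown and its inhibitors, 10 of 13 tested fell and 3 rose (median -8.12). *MMP14* went from 48274 to 9.32, and *TIMP2* from 23028 to 9.18.

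The same lists were compared between embryo groups. In SCNT4c-KG against SCNT4c, 3 of 15 tested genes of chain modification and folding rose and 4 fell, beside 17.6% higher and 19.6% lower over all features. Of the propeptide and crosslinking genes 1 of 9 rose and 3 fell, of the fibril-associated proteins none of 8 rose and 5 fell, of the receptors 1 of 8 rose and 2 fell, and of the breakdown genes 2 of 12 rose and 3 fell. *SEC23A*, a coat subunit of vesicles that leave the endoplasmic reticulum, went from 571 in SCNT4c to 60.8 in SCNT4c-KG, and *PLOD2* from 1845 to 688. Their log2 fold changes were -3.17 and -1.51 (limma adjusted p = 0.000112 and 0.00244). *PPIB*, also a gene of chain modification and folding, rose instead. Its mean was 196 in SCNT4c, 2188 in SCNT4c-KG and 947 ± 605 in SCNT8c. On the log2 scale limma placed *PPIB* 3.47 above SCNT4c in SCNT4c-KG and 2.02 above it in SCNT8c. Both rises passed the rule used throughout. In SCNT4c-TDG against SCNT4c, 3 of the 15 genes of chain modification rose and 1 fell, beside 15.7% higher and 17.6% lower over all features. Of the propeptide and crosslinking genes 1 of 9 rose and 3 fell, of the fibril-associated proteins none of 8 rose and 3 fell, of the receptors 2 of 8 rose and 2 fell, and of the breakdown genes 1 of 12 rose and 2 fell. In SCNT8c against SCNT4c, 2 of 15 genes of chain modification rose and none fell, beside 2.62% and 3.16% over all features. In that comparison 1 of 9 propeptide and crosslinking genes, 1 of 8 fibril-associated proteins and 1 of 8 receptors fell, none of them rose, and no breakdown gene of 12 changed.

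Some members of these lists rose against PFF and others differed between embryo groups, and both kinds are named here after their values were seen. *MMP13*, a collagenase, went from 4.15 in PFF to 1568 ± 264 in SCNT4c, 241 in SCNT4c-KG and 343 in SCNT4c-TDG. *MEP1B*, a meprin that can cleave procollagen, went from 2.12 to 3115 ± 131 in SCNT4c, 818 in SCNT4c-KG and 779 in SCNT4c-TDG. *MEP1B* was also lower than in SCNT4c in the untreated SCNT8c embryos, at 715 ± 517 (log2 fold change -2.40, limma adjusted p = 0.0189), as it was in SCNT4c-KG and SCNT4c-TDG (log2 fold changes -1.95 and -2.01). *MMP13* was lower than in SCNT4c in SCNT4c-KG and SCNT4c-TDG (log2 fold changes -2.72 and -2.25), and its SCNT8c libraries had a mean of 982 ± 1029 (-1.38, limma adjusted p = 0.191). *TIMP2* went the other way between embryo groups, from 9.18 in SCNT4c to 2035 ± 337 in SCNT4c-KG and 994 ± 226 in SCNT4c-TDG (log2 fold changes 7.72 and 6.67). All these levels of *TIMP2* were below its PFF level given above. *MIA3*, which helps to export bulky collagens from the endoplasmic reticulum, went from 10.9 in SCNT4c to 664 ± 296 and 174 ± 21.5 (log2 fold changes 5.82 and 4.01). *ITGA2*, a collagen receptor subunit, went from 6.91 in SCNT4c to 63.4 and 248 (log2 fold changes 2.90 and 5.04). The rises against PFF in these lists were of *COLGALT2*, *MEP1B*, *TLL2*, *GP6*, *MMP1*, *MMP13* and *TIMP4* in SCNT4c. *TIMP2*, *MIA3* and *ITGA2* were not among them.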

How the data were processed

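RNA-seq of 15 libraries in 5 groups of 3 was analysed. The authors amplified cDNA with a SMARTer kit, used Trimmomatic 0.39 for trimming and STAR 2.5.3a for alignment (assembly Sscrofa11.1), assembled transcripts with StringTie 2.1.2 and counted with HTSeq. The strand setting and batches are not given in the sources used here. The deposited signal values are gene counts divided by 1 factor per library, as normalised counts. Of 43535 entries, 241 repeated a gene ID and were removed. Whole reads were recovered from 100.0% of the values (tolerance 0.05), giving 12354649 to 22868038 reads per library. PFF comparisons were fitted on 6 libraries and embryo comparisons on 12, with limma 3.58.1 (R 4.3.3) on log2(value + 1), a minimum mean of 10 and Benjamini-Hochberg adjustment over all features tested. A fold change on this scale understates the change of low genes. A change needed adjusted p under 0.05 and a fold above 2. The alternatives were edgeR 4.0.16 and DESeq2 1.42.0 on the recovered reads, other scalings, pseudocounts and minimums, and leaving out each library. SCNT4c libraries are called a, b and c because the labels number them in conflicting ways. The limma step was tested on simulated data.

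Collagen genes and gene lists were chosen with earlier results of these data known. *INHBA* was left out because the table lists it more than once. Values are given per library for the 8 collagen genes highest in PFF, the 8 highest in any embryo group, and up to 5 with the greatest fold change among those called in each embryo comparison. Those with a mean of at least 50 in a group are given by group means. For other lists, up to 4 members with the highest mean are named, besides members named after their values were seen.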

Additional observations from a re-analysis of the deposited data

Results flagged for a closer look

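Assembled transcripts at collagen loci lie outside the gene entries compared in the report, and 2 of them carried high values. The transcript at the *COL5A1* locus had a mean of 59734 in PFF (SD 4952, n = 3) and of 4.13 in SCNT4c. The transcript at the *COL4A6* locus had a mean of 13993 in SCNT4c (SD 6521), 9563 in SCNT8c, 2733 in SCNT4c-KG and 3350 in SCNT4c-TDG (*COL4A6*'s own entry was far lower), and no read in PFF. Neither transcript's position within its locus is given, and whether these reads belong to the collagen gene is not known.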

How the results depend on the processing

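Of 30 results for named genes, 14 were of SCNT4c against PFF and 16 were between embryo groups. The other comparisons with PFF were not among the 30. Of these 30, 23 kept their call in every alternative that could be fitted, among them all 14 of SCNT4c against PFF. The other 7, all between embryo groups, lost it in at least 1. No direction of these 30 reversed. Over all collagen genes, 11 of 105 calls against PFF were lost in at least 1 alternative: *COL2A1*, *COL28A1*, *COL4A6* and *COL24A1* in SCNT4c, *COL17A1* and *COL4A4* in SCNT8c, *COL17A1*, *COL21A1* and *COL24A1* in SCNT4c-KG, and *COL23A1* and *COL24A1* in SCNT4c-TDG. *COL24A1* lost its fall in SCNT4c and SCNT4c-KG where assembled transcripts of its locus were added (adjusted p = 0.224 and 0.103) and in 9 of 15 alternatives in SCNT4c-TDG. The change of *COL2A1* in SCNT4c also turned its direction with quantile normalization (log2 fold change -0.83). For SCNT8c against SCNT4c, the count of 3 changed collagen genes was 1 with edgeR, 0 in a fit of the 2 groups alone and from 0 to 9 with 1 library left out. For SCNT4c-TDG against SCNT4c, the count of 4 was 7 with DESeq2 and 10 where limma was given those 2 groups only. The number of genes 2-fold to 5-fold lower in SCNT4c, 1 in the report, was 2 at a minimum PFF mean of 10, 0 at a minimum of 200 and from 0 to 1 with 1 library left out (0 without SCNT4c replicate b). The number lower by under 2-fold or not lower, 0 in the report, was 2 at a minimum of 10 (*COL17A1* and *COL23A1*, whose means were above those of PFF) and 1 when assembled transcripts of a locus were added, an alternative chosen after seeing the data. The cause was not tested.

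With the replicate block, 24, 27 and 27 collagen genes changed in SCNT8c, SCNT4c-KG and SCNT4c-TDG against PFF, beside 23, 27 and 27 without it. Deviations of same-numbered libraries correlated at -0.057 to 0.189 over 18 pairs of same-numbered libraries, so the numbers were not taken to pair the libraries. No paired analysis was possible because SCNT4c columns carry no usable replicate number for comparisons with SCNT4c.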
